A study of Mus musculus with 12 samples.

Results

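Emerin-null mouse myogenic progenitors were compared upon plating at high density, with the day 0 culture set against the proliferating culture of the same genotype. The values are transcript levels in FPKM, sequenced fragments scaled by transcript length and by the number of mapped fragments, so that levels are per length. A gene entered the comparison when an entry for it had been tested at both stages, when the entry with the largest summed FPKM was taken for each stage, and when emerin-null FPKM was at least 1 at one stage. This gave 12230 genes of the 13257 gene symbols tested at both stages. Of these, 11607 had at least 1 FPKM at both stages, 287 only at day 0 and 336 only while proliferating. The rule used level and test status but not the size or direction of the change. Just inside the limit, 1810014B01Rik had 1.00 FPKM at day 0 and 0.854 FPKM while proliferating, and just outside it Pla2g2e had 0.342 FPKM at day 0 and 1.00 FPKM while proliferating. Changes are log2 ratios of day 0 over proliferating after 0.1 FPKM was added and after day 0 values were divided by the median ratio of all shared genes, which was 1.02 in emerin-null and 1.04 in wildtype progenitors. Levels are printed as deposited.

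The series holds 12 samples, 1 for each of 6 stages in emerin-null and in wildtype progenitors. Both lines are H2K myogenic progenitors, cells from mice that carry an interferon-inducible, temperature-sensitive SV40 large T antigen, and each genotype is represented by 1 cell line. The groups used here were as follows. Emerin-null day 0 cells were taken 24 h after plating at high density in proliferation medium, before serum was withdrawn. Emerin-null proliferating cells were grown sparsely. Wildtype day 0 and wildtype proliferating cells were handled in the same 2 ways, and all 4 cultures received γ-interferon at 20 units per ml. Per the study's methods RNA came from independent culture plates for each sample, with biological replicates at each time point, but the tables give 1 value per genotype and stage. The labels and the methods disagree on the temperature at which proliferating cells were grown, and any part of it in the changes cannot be told apart from that of plating. No spread between cultures can be computed from the tables, so that no test was made here, and read depth is unknown. A difference is called 2-fold here when the log2 change was at least 1 or at most -1, and this describes these 2 samples only.

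Myogenic progenitors are the descendants of muscle satellite cells. They divide while Pax7, Myf5 and Myod1 are expressed, and after cell cycle exit they turn on Myog and Mef2 factors, then sarcomere, calcium-handling and metabolic genes, and fuse into myotubes. Crowding before serum withdrawal brings the cells into contact, and they lay down and remodel matrix on the dish. Emerin is an inner nuclear membrane protein that binds lamin A, and its loss causes X-linked Emery-Dreifuss muscular dystrophy.

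Emd, the gene for emerin, was checked first. It had 0.0859 FPKM in emerin-null and 62.1 FPKM in wildtype progenitors at day 0, and 0.810 FPKM in emerin-null and 14.9 FPKM in wildtype progenitors while proliferating. It stayed below the limit of 1 FPKM in both emerin-null samples and was not one of the 12230 genes. In the mm10 genome the Emd entry ran from chrX:74254619-74257652 at day 0 and from chrX:74253935-74261563 in the proliferating table, so that its gene model differed between the tables. Myoblast markers were present at both stages of the emerin-null cells. Des, the muscle intermediate filament, had 355 FPKM at day 0 and 401 FPKM while proliferating, and Ncam1, an adhesion molecule of myoblasts, had 83.4 and 82.4 FPKM at these stages. Cdh15, a further marker, had 74.9 FPKM at day 0 and 160 FPKM while proliferating, with 2 entries while proliferating. Myod1, Myf5 and Pax7, given below, were also lower at day 0.

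The promoters of 4 muscle genes described below are shown because their transcripts were lower at day 0 in emerin-null progenitors and each holds a motif of the myogenic factors. They are the 250 bases before the RefSeq start in build GRCm38.p6, written 5′ to 3′ on the gene's strand, with CAGCTG (an E-box read by MyoD and myogenin, its own reverse complement) and matches to the MEF2 site in capitals.
Casq2: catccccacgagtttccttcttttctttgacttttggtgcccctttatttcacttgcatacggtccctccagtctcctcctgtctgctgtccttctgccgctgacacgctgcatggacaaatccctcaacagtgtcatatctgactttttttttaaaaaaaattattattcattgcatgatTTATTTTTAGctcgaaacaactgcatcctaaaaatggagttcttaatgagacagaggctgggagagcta
Mybpc1: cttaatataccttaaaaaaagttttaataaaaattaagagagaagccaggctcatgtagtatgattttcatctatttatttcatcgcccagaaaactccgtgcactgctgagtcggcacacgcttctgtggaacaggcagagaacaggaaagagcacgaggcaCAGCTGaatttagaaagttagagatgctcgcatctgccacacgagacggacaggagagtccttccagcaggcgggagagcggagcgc
Myoz2: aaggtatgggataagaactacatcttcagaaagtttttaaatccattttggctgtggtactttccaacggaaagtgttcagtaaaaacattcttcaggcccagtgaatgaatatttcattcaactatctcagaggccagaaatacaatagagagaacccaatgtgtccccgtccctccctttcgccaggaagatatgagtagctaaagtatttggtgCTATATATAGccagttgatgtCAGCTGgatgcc
Ckm: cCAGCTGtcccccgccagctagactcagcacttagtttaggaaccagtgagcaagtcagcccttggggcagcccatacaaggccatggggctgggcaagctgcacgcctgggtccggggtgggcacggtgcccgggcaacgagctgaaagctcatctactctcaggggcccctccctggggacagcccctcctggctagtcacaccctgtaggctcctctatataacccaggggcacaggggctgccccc
They lie at chr3:102086165-102086414 (plus strand, Casq2), chr10:88605153-88605402 (minus strand, Mybpc1), chr3:123034988-123035237 (minus strand, Myoz2) and chr7:19410844-19411093 (plus strand, Ckm). CAGCTG stood in 15 of the 33 sarcomere promoters matched by symbol (45.5%), in 7 of 14 promoters of the excitation and calcium handling list and in 12.9% of all 27025 promoters of the same length. A match to the MEF2 site stood in 4 of the 33 sarcomere promoters (12.1%), in 1 of the 14 excitation and calcium handling promoters (7.14%) and in 2.98% of all promoters. Both strands were searched. The general E-box CANNTG, where N is any base, stood in 84.8% of the sarcomere promoters. It stood in 78.6% of the excitation and calcium handling promoters and in 66.2% of all promoters. The promoter of Csrp3, the sarcomere gene lowest at day 0 among the one-entry genes defined below, held neither motif in this window. A match describes the letters only.

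In emerin-null progenitors 918 of 12230 genes (7.51%) passed 2-fold upwards at day 0 and 996 (8.14%) downwards. In wildtype progenitors 915 of 12178 genes (7.51%) did so upwards and 924 (7.59%) downwards. The share past 2-fold differed with the number of table entries. Each stage has its own table with its own gene models, and a gene often has several entries at one locus. Among genes with several entries at a stage, 21.3% passed 2-fold (1456 of 6838), against 8.49% of genes with 1 entry at both stages (458 of 5392), as shown in the plot of 2-fold genes by table entries. The part of the gene models in these counts was not tested. Of the 15 highest and 15 lowest genes that were alone at their locus, 30 in all, 28 had more than 1 entry at a stage, 14 had an entry above 1000 FPKM, and 26 passed 2-fold in the same direction in wildtype. At the stage where they were higher, 27 had a further entry, and for 19 that further entry lay within 2-fold of the value at the other stage. Trak1, an adaptor for mitochondrial transport, had 10.4 FPKM at day 0 and 45055 FPKM while proliferating, but its next entry in the proliferating table had 10.1 FPKM. Cpsf6, an mRNA cleavage factor subunit, had 1275 FPKM at day 0 and 39.5 FPKM while proliferating, with a further entry of 40.3 FPKM at day 0. The ends of the ranking are not described further.

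**Figure D1:**
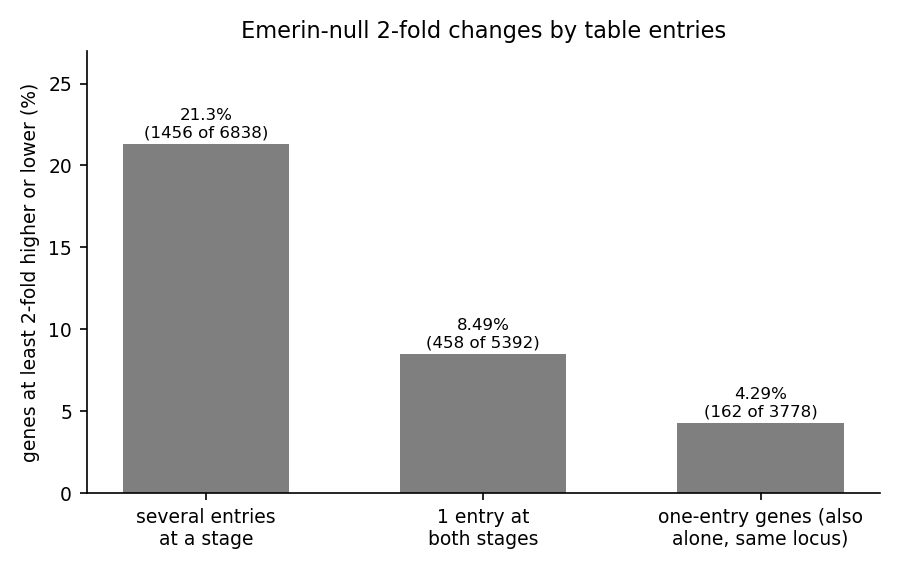
Percentage of genes at least 2-fold higher or lower at day 0 than while proliferating in emerin-null progenitors (vertical axis), by the number of entries a gene had in the 2 tables. The bars stand at 21.3%, 8.49% and 4.29%, lowest for genes with 1 entry, no other gene at the locus and loci that coincide.

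A narrower set was added after the tables were seen, called one-entry genes here. These genes had 1 entry at both stages, no other named gene at the locus, and loci of at least 500 bases that overlapped by at least 80% of the longer one. There were 3778 of them. At day 0 in emerin-null progenitors 64 (1.69%) passed 2-fold upwards and 98 (2.59%) downwards, and in wildtype progenitors 49 (1.31%) of 3753 did so upwards and 74 (1.97%) downwards. From the 5th to the 95th percentile the emerin-null change ran from -0.76 to 0.61, and the wildtype change from -0.62 to 0.58. Across the 3700 genes with a change in both genotypes, Pearson's r between the genotypes was 0.77 and Spearman's rho 0.68, as a description, since genes are not independent and both genotypes share their gene models within a table. Of 63 genes at least 2-fold higher in emerin-null with a wildtype value, 43 had a wildtype change within 0.25 of it on the log2 scale, and 5 had the opposite sign in wildtype. Of 95 genes at least 2-fold lower, 54 had a wildtype change that close, and 6 had the opposite sign. Large equal changes in both genotypes remained in this set, and a plating change common to both genotypes and a difference of gene models between the tables cannot be told apart for them. Ran, the nuclear transport GTPase and chosen after its values were seen, had 59.3 FPKM at day 0 and 272 FPKM while proliferating in emerin-null, and 59.5 and 276 FPKM at these stages in wildtype. Dapk3, a kinase that acts on myosin light chain also chosen after its values were seen, had 23.8 FPKM at day 0 and 1.35 FPKM while proliferating in emerin-null, and 26.8 and 1.56 FPKM in wildtype. Most of what follows rests on one-entry genes and names the others as such.

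**Figure D2:**
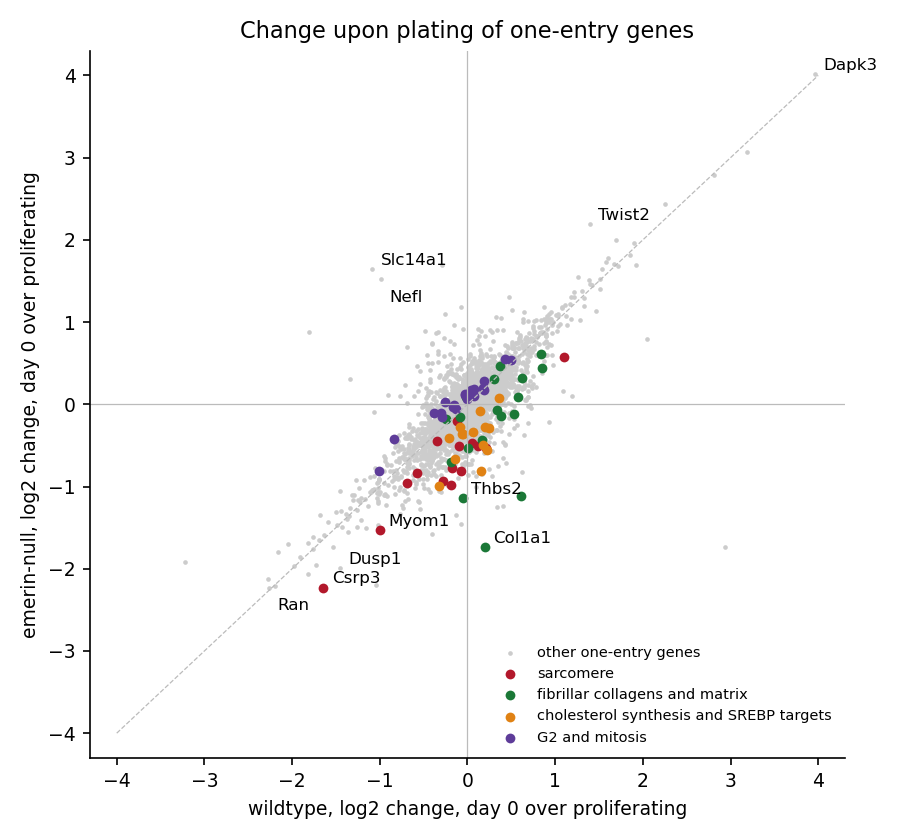
Log2 change of one-entry genes, day 0 over proliferating, in emerin-null (vertical axis) against wildtype progenitors (horizontal axis), with 4 gene lists in colour and the line of equal change dashed. Most points follow the dashed line (Pearson's r = 0.77), while sarcomere and cholesterol genes lie below it and Col1a1 stands at -1.73 in emerin-null and 0.20 in wildtype.

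Genes of the sarcomere, the contractile unit of muscle, had a median change below 0, lower at day 0 than while proliferating, in emerin-null progenitors. Of 43 measured members 8 passed 2-fold downwards and 2 upwards, against a background of 8.14% downwards and 7.51% upwards, and their median change was -0.78, against -0.18 for the list in wildtype and 0.00 for all genes. Of the 15 one-entry members 14 had a change below 0 and 2 passed 2-fold, with a median of -0.78, against -0.16 in wildtype. In each of these 15 the emerin-null change was below the wildtype change, whereas over all one-entry genes this was so for 1820 of 3700. The difference between genotypes was not tested. Csrp3, the muscle LIM protein of the Z-disc (chr7:48830487-48850163), had 3.36 FPKM at day 0 and 15.8 FPKM while proliferating in emerin-null, a change of -2.23, and 6.04 and 18.4 FPKM in wildtype, a change of -1.64. Myom1, the M-band protein myomesin (chr17:71018775-71126858), had 7.19 FPKM at day 0 and 20.5 FPKM while proliferating in emerin-null, and 11.3 and 21.8 FPKM in wildtype. Both genes were thus lower at day 0 in both genotypes, and the emerin-null day 0 value was the lowest of the 4.

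Further one-entry members, chosen after their values were seen, were lower at day 0 in emerin-null and nearly level in wildtype. Mybpc1, slow myosin binding protein C, had 4.81 FPKM at day 0 and 9.36 FPKM while proliferating in emerin-null, and 14.6 and 16.1 FPKM in wildtype. Actn2, the Z-disc crosslinker α-actinin, had 46.0 FPKM at day 0 and 85.7 FPKM while proliferating in emerin-null, and 78.5 and 92.2 FPKM in wildtype. Acta1, skeletal muscle actin and the most abundant of the one-entry members, had 821 FPKM at day 0 and 1117 FPKM while proliferating in emerin-null, and 1514 and 1415 FPKM in wildtype. Ldb3, a Z-disc protein that binds α-actinin, changed by -0.54 in emerin-null and 0.21 in wildtype, and Myoz2, a Z-disc protein that binds calcineurin, by -0.51 and 0.12. Des, which links Z-discs, changed by -0.21 in emerin-null and -0.12 in wildtype. Flnc, muscle filamin, was the exception, with 97.3 FPKM at day 0 and 64.0 FPKM while proliferating in emerin-null, and 123 and 55.5 FPKM in wildtype. The largest decrease of the whole list was that of Actc1, cardiac actin, with 143 FPKM at day 0 and 2795 FPKM while proliferating in emerin-null, and 138 and 1610 FPKM in wildtype, but its entries overlapped by only 0.31 of the longer locus. Tnnt1, slow troponin T, had several entries and changed by -1.25 in emerin-null and -1.10 in wildtype. Myl1, a fast myosin light chain, changed by -0.95 in emerin-null and -0.66 in wildtype with entries that overlapped by 0.18.

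**Figure D3:**
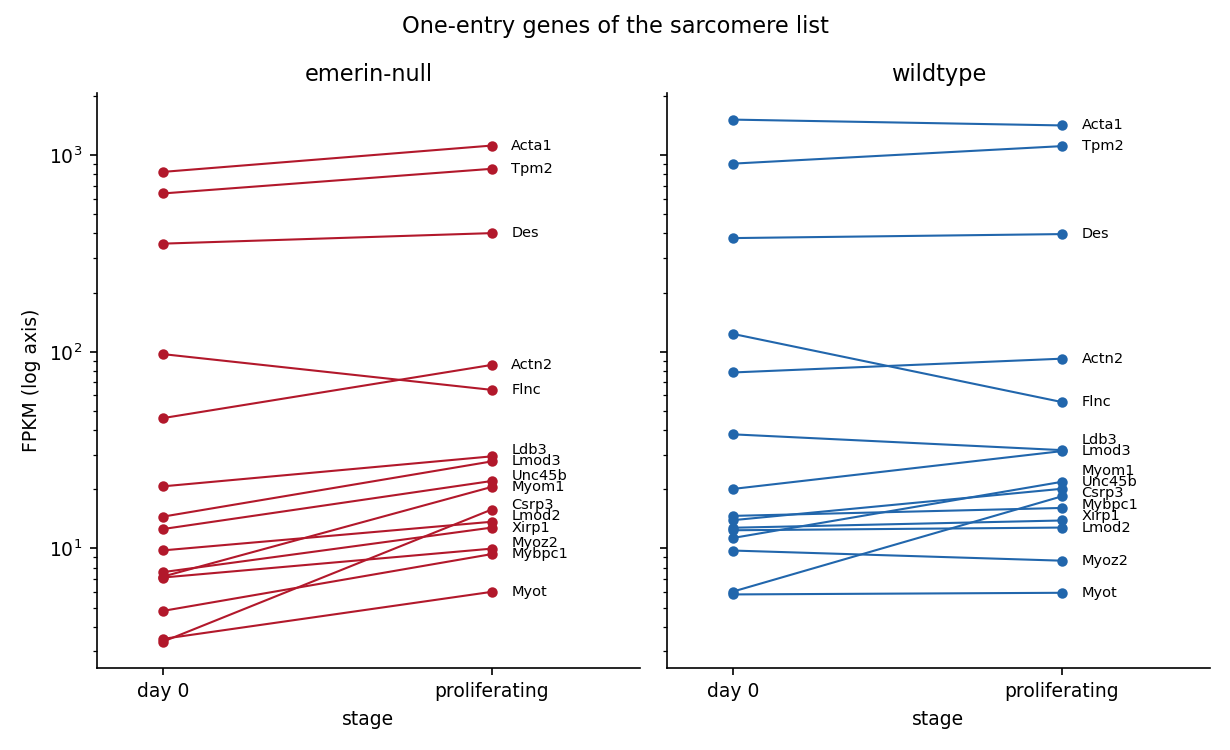
FPKM (log axis) of the 15 one-entry sarcomere genes at day 0 and while proliferating, in emerin-null (left) and wildtype progenitors (right), 1 value per point. In emerin-null 14 lines slope up towards proliferating, with Flnc the exception at 97.3 FPKM at day 0 and 64.0 FPKM while proliferating. In wildtype Flnc slopes the same way, with 123 and 55.5 FPKM, and Acta1, Ldb3 and Myoz2 slope as it does.

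Genes of excitation and calcium handling, which couple the nerve signal to calcium release, had a median change below 0 as well. Of 26 measured members 7 passed 2-fold downwards and 2 upwards, against 8.14% of all genes downwards and 7.51% upwards, with a median of -0.69 in emerin-null and -0.29 in wildtype. Only 6 members were one-entry genes, with medians of -0.66 in emerin-null and -0.58 in wildtype, and the emerin-null change was the lower in 3 of them and the higher in 3. Casq2, calsequestrin of the calcium store (chr3:102085940-102145225), had 29.8 FPKM at day 0 and 70.1 FPKM while proliferating in emerin-null, and 52.4 and 84.0 FPKM in wildtype. Cacnb1, the β subunit of the muscle calcium channel and chosen after its values were seen, changed by -1.06 in emerin-null and -0.73 in wildtype. Cacng1, the γ subunit and also chosen after its values were seen, changed by -0.80 in emerin-null and -0.81 in wildtype. Cacna2d1, another subunit of this channel, had 580 FPKM at day 0 and 19.6 FPKM while proliferating in emerin-null, but a further day 0 entry had 16.6 FPKM. Bin1, which shapes T-tubules, and Dok7, an activator of the kinase MuSK at the neuromuscular junction, had several entries and changed by -1.28 and -1.11 in emerin-null, and by -1.03 and -1.72 in wildtype. In the muscle energy metabolism list 3 of 18 members passed 2-fold downwards and 3 upwards, against 8.14% of all genes downwards and 7.51% upwards, with a median of -0.45 in emerin-null and -0.19 in wildtype. All 6 one-entry members of that list had a change below 0 in emerin-null and a higher one in wildtype. Ckm, muscle creatine kinase, had 13.5 FPKM at day 0 and 22.4 FPKM while proliferating in emerin-null, and 28.1 and 32.3 FPKM in wildtype. Slc2a4, the insulin-responsive glucose transporter and chosen after its values were seen, changed by -0.72 in emerin-null and -0.14 in wildtype. Ldha, lactate dehydrogenase A, lay the other way in both genotypes, with changes of 1.27 in emerin-null and 1.13 in wildtype, and had 2 entries while proliferating. In bulk samples fewer cells that express these genes and less RNA of them per cell cannot be told apart.

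Among the myogenic regulators 5 of 26 measured members passed 2-fold downwards at day 0 and 0 upwards in emerin-null, against 8.14% of all genes downwards and 7.51% upwards. In wildtype 3 passed downwards and 1 upwards, against 7.59% and 7.51% of all genes. The median was -0.43 in emerin-null and -0.10 in wildtype, but over the 13 one-entry members it was -0.07 and 0.03. Mef2c, a MADS-box factor that activates muscle genes (chr13:83503935-83667088), had 21.7 FPKM at day 0 and 42.0 FPKM while proliferating in emerin-null, and 28.8 and 32.6 FPKM in wildtype. Myf6, a late myogenic bHLH factor, had 1.86 FPKM at day 0 and 3.90 FPKM while proliferating in emerin-null, and 3.22 and 3.86 FPKM in wildtype. Myf5, an early factor of the same family, had 8.26 FPKM at day 0 and 12.6 FPKM while proliferating in emerin-null, and 5.07 and 5.10 FPKM in wildtype. For these 3 genes the emerin-null day 0 value was lower than the emerin-null proliferating value, while the 2 wildtype values were close. Mef2a and Smyd1, a MEF2 factor and a histone methyltransferase of muscle chosen after their values were seen, changed by -0.86 and -0.73 in emerin-null and by -0.41 and -0.32 in wildtype. Pax7, the satellite cell factor, had several entries and changed by -0.53 in emerin-null and -0.89 in wildtype. Myog, myogenin, had 186 FPKM at day 0 and 806 FPKM while proliferating in emerin-null, and 198 and 744 FPKM in wildtype. Myod1, the master regulator MyoD, had 145 FPKM at day 0 and 351 FPKM while proliferating in emerin-null, and 146 and 349 FPKM in wildtype. Both genotypes were close to each other for Myog and Myod1, and their entries overlapped by only 0.48 and 0.32 of the longer locus. Eya4, a cofactor of homeobox factors in muscle, was listed at 0 FPKM at day 0 and at 28.2 FPKM while proliferating in emerin-null, but a further day 0 entry had 24.7 FPKM. Among the factors that oppose differentiation, Id1, Id3 and Twist1 changed by 0.19, 0.25 and 0.23 in emerin-null and by 0.03, 0.12 and 0.19 in wildtype. Id2, an inhibitor of bHLH factors, had 177 FPKM at day 0 and 115 FPKM while proliferating in emerin-null, and 106 and 91.8 FPKM in wildtype, and Twist2, a bHLH repressor outside the list, had 7.77 and 1.59 FPKM in emerin-null and 4.60 and 1.62 FPKM in wildtype, all 5 chosen after their values were seen.

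**Figure D4:**
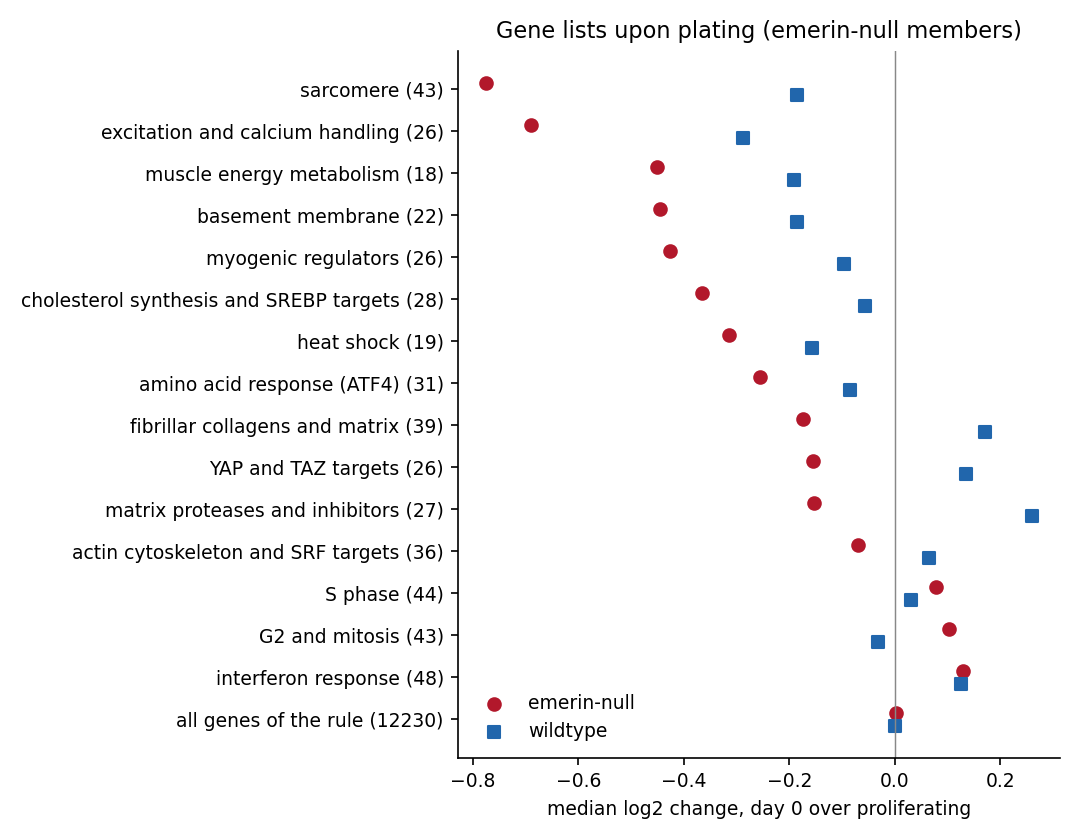
Median log2 change, day 0 over proliferating, of the members of 15 gene lists and of all genes of the comparison, in emerin-null (circles) and wildtype progenitors (squares), with the number of emerin-null members in brackets. The sarcomere list stands lowest at -0.78 in emerin-null and at -0.18 in wildtype, and the cell cycle lists stand near 0.

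The matrix genes are given next, with differences between the genotypes not tested. In the list of fibrillar collagens and matrix 5 of 39 measured members passed 2-fold downwards at day 0 and 0 upwards in emerin-null, against 8.14% of all genes downwards and 7.51% upwards. In wildtype 0 passed 2-fold in either direction, against 7.59% of all genes downwards and 7.51% upwards. The median was -0.17 in emerin-null and 0.17 in wildtype, and over the 19 one-entry members -0.15 and 0.31. In 14 of the 18 one-entry members with a wildtype value the emerin-null change was the lower, and in 4 it was the higher. Col1a1, the α1 chain of type I collagen (chr11:94936215-94953041), had 4.97 FPKM at day 0 and 16.4 FPKM while proliferating in emerin-null, and 22.7 and 19.04 FPKM in wildtype. The other samples lay between 16.4 and 22.7 FPKM, and the emerin-null day 0 sample stood alone. Col1a2, the α2 chain of the same fibre, changed by -0.51 in emerin-null and 0.02 in wildtype and had 2 entries at each stage. Its chosen entries had 334 FPKM at day 0 and 465 FPKM while proliferating in emerin-null, and 485 and 462 FPKM in wildtype. Col1a1 thus stood far below Col1a2 in all 4 samples, and the reason was not tested. Col6a1, a chain of the microfibrillar collagen VI around muscle fibres, had 7.22 FPKM at day 0 and 12.2 FPKM while proliferating in emerin-null, a change of -0.78, against 0.66 in wildtype, with 2 entries at day 0. Col6a2, its partner chain, had 1.29 FPKM at day 0 and 2.84 FPKM while proliferating in emerin-null, and 1.27 and 0.769 FPKM in wildtype. Thbs2, a matricellular thrombospondin, had 1.38 FPKM at day 0 and 3.10 FPKM while proliferating in emerin-null, and 12.6 and 12.7 FPKM in wildtype. Col6a2 and Thbs2 were chosen after their values were seen. Other matrix genes were higher at day 0 in both genotypes. Col3a1, type III collagen, had 324 FPKM at day 0 and 206 FPKM while proliferating in emerin-null, and 411 and 221 FPKM in wildtype, and Tnc, tenascin C, changed by 0.44 and 0.85, both chosen after their values were seen.

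In the basement membrane list, the sheet that wraps each fibre, 4 of 22 members passed 2-fold downwards and 0 upwards in emerin-null, against 8.14% of all genes downwards and 7.51% upwards, with medians of -0.44 in emerin-null and -0.19 in wildtype. Over the 16 members alone at their locus the medians were -0.21 in emerin-null and -0.17 in wildtype, and the emerin-null change was the lower in 8 and the higher in 8. Over the 10 one-entry members the medians were -0.37 in emerin-null and -0.12 in wildtype. Among these the emerin-null change was the lower in 6 and the higher in 4. Lama2, the laminin α2 chain of muscle, had 5.38 FPKM at day 0 and 10.8 FPKM while proliferating in emerin-null, and 6.66 and 9.79 FPKM in wildtype. Gpc4, a heparan sulphate proteoglycan, had 3.52 FPKM at day 0 and 5.90 FPKM while proliferating in emerin-null, and 4.81 and 4.80 FPKM in wildtype. Nid2, nidogen 2, changed by -1.15 in emerin-null and -0.51 in wildtype and had 2 entries at day 0. Col18a1, a collagen of this sheet chosen after its values were seen, lay the other way, with 66.8 FPKM at day 0 and 42.6 FPKM while proliferating in emerin-null, and 49.7 and 60.7 FPKM in wildtype. Among matrix proteases and their inhibitors the median was -0.15 in emerin-null and 0.26 in wildtype over 27 members. Adamts5 and Adamts1, both proteases of large proteoglycans and chosen after their values were seen, changed by -1.24 and -0.82 in emerin-null and by 0.40 and 0.62 in wildtype. Adamts5 had 1.74 FPKM at day 0 and 4.17 FPKM while proliferating in emerin-null, and 8.39 and 6.10 FPKM in wildtype. Plau, the urokinase protease, changed by -0.34 in emerin-null and -0.20 in wildtype.

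The median of the cholesterol genes was below 0 in emerin-null, and few members passed 2-fold. Of 28 measured members of cholesterol synthesis and its regulator SREBP 2 passed 2-fold downwards and 0 upwards, against 8.14% of all genes downwards and 7.51% upwards, with a median of -0.37 in emerin-null and -0.06 in wildtype. Over the 15 one-entry members the medians were -0.36 and 0.10, 14 had an emerin-null change below 0, and in all 14 that had a wildtype value the emerin-null change was the lower. Hmgcs1, the synthase that feeds the mevalonate pathway (chr13:119690342-119706459), had 27.2 FPKM at day 0 and 52.96 FPKM while proliferating in emerin-null, and 25.1 and 30.4 FPKM in wildtype. For Hmgcs1 the 2 day 0 cultures were close, and it was the emerin-null proliferating culture that stood above the 3 others. Lss, lanosterol synthase, had 5.59 FPKM at day 0 and 9.67 FPKM while proliferating in emerin-null, and 6.94 and 6.02 FPKM in wildtype. Scd1, a stearoyl-CoA desaturase, had 14.3 FPKM at day 0 and 20.8 FPKM while proliferating in emerin-null, and 27.7 and 22.9 FPKM in wildtype.

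The median changes of the cell division lists upon plating were near 0. Of 44 S phase genes 1 passed 2-fold upwards and 2 downwards in emerin-null, with a median of 0.08, and of 43 genes of G2 and mitosis 3 did so upwards and 4 downwards, with a median of 0.10, while 7.51% of all genes passed upwards and 8.14% downwards. The wildtype medians of these lists were 0.03 and -0.03. In wildtype 1 of 44 S phase genes passed 2-fold upwards and 2 downwards. Of 43 genes of G2 and mitosis 2 did so upwards and 6 downwards, against 7.51% and 7.59% of all genes. None of the 20 one-entry members of either list passed 2-fold, and in 19 of the 20 mitotic ones the emerin-null change was the higher, by a median of 0.13. Mki67, the proliferation antigen Ki-67, had 60.3 FPKM at day 0 and 40.6 FPKM while proliferating in emerin-null, and 60.4 and 41.3 FPKM in wildtype. Ccnb1, cyclin B1, had 13.8 FPKM at day 0 and 23.7 FPKM while proliferating in emerin-null, and 11.7 and 22.9 FPKM in wildtype. These values were close between the genotypes at each stage. Ccnd1, cyclin D1 and chosen after its values were seen, changed by 0.42 in emerin-null and -0.12 in wildtype. Kif11, a spindle motor, changed by 5.86 in emerin-null with 1311 FPKM at day 0, where a further entry had 34.0 FPKM, and its chosen wildtype entry was listed at 0 FPKM at day 0. Cdkn1c, the cell cycle inhibitor p57, had 127 FPKM at day 0 and 239 FPKM while proliferating in emerin-null, and 36.2 and 52.5 FPKM in wildtype, so that both emerin-null cultures stood above both wildtype cultures. Cdkn1a, the inhibitor p21, had 99.7 FPKM at day 0 and 559 FPKM while proliferating in emerin-null, and 128 and 537 FPKM in wildtype, with 2 entries while proliferating. Gadd45b, a stress gene, had 9.02 FPKM at day 0 and 25.1 FPKM while proliferating in emerin-null, and 9.34 and 21.7 FPKM in wildtype. Gas6, a growth arrest ligand, had 15.6 and 30.6 FPKM in emerin-null, and 25.6 and 42.1 FPKM in wildtype.

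In the signalling lists single genes stood out. Dusp6, the phosphatase that limits ERK, had 12.9 FPKM at day 0 and 7.33 FPKM while proliferating in emerin-null, and 8.57 and 9.53 FPKM in wildtype. Dusp2, Dusp4 and Dusp5, phosphatases of the same family chosen after their values were seen, changed by -0.10, 0.10 and 0.41 in emerin-null and by -1.06, -0.62 and -0.43 in wildtype. In each of these 4 genes the emerin-null change was the higher. Dusp1, a MAP kinase phosphatase induced by stress, had 4.72 FPKM at day 0 and 18.7 FPKM while proliferating in emerin-null, and 7.94 and 21.2 FPKM in wildtype. Fos, an immediate early factor, had 4.42 FPKM at day 0 and 10.1 FPKM while proliferating in emerin-null, and 5.42 and 5.69 FPKM in wildtype, with entries overlapping by 0.64. The 30 measured immediate early genes had medians of 0.02 in emerin-null and -0.10 in wildtype. Among YAP and TAZ targets, which report crowding and tension, the median was -0.15 in emerin-null and 0.13 in wildtype over 26 members. Ctgf, a matricellular growth factor of that list, had 13.5 FPKM at day 0 and 18.7 FPKM while proliferating in emerin-null, and 22.8 and 16.3 FPKM in wildtype. Tead4, a DNA-binding partner of YAP, had 3.89 FPKM at day 0 and 15.1 FPKM while proliferating in emerin-null, and 5.70 and 18.5 FPKM in wildtype. Cyr61, a relative of Ctgf, changed by 1.49 in emerin-null and 2.05 in wildtype, with entries overlapping by 0.10.

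Tgfb2, a TGF-β ligand, had 6.17 FPKM at day 0 and 13.9 FPKM while proliferating in emerin-null, and 5.79 and 8.25 FPKM in wildtype. Mstn, the muscle growth inhibitor myostatin, had 1.86 FPKM at day 0 and 3.41 FPKM while proliferating in emerin-null, and 2.96 and 2.67 FPKM in wildtype. Grem1, a secreted BMP antagonist, had 14.3 FPKM at day 0 and 8.60 FPKM while proliferating in emerin-null, and 10.3 and 16.1 FPKM in wildtype, and like Mstn was chosen after its values were seen. Sfrp2, a secreted Wnt modulator, had 4.28 FPKM at day 0 and 6.93 FPKM while proliferating in emerin-null, and 10.1 and 7.14 FPKM in wildtype. Grem1 and Sfrp2 thus lay in opposite directions in the 2 genotypes, by less than 2-fold in each. Hgf, the ligand that activates satellite cells, had 9.68 FPKM at day 0 and 5.02 FPKM while proliferating in emerin-null, and 18.2 and 13.9 FPKM in wildtype. Lfng, a modifier of Notch receptors, changed by 1.03 in emerin-null and 1.28 in wildtype. Igfbp6, an IGF-II binding protein, had 6.74 FPKM at day 0 and 21.7 FPKM while proliferating in emerin-null, and 9.53 and 38.3 FPKM in wildtype. Of the guidance cues, Sema3e changed by -1.35 in both genotypes, and Sema3a by 1.18 in emerin-null and 1.07 in wildtype. Alcam, a cell adhesion molecule, had 7.25 FPKM at day 0 and 3.25 FPKM while proliferating in emerin-null, and 7.23 and 8.37 FPKM in wildtype, so that the emerin-null proliferating culture stood below the 3 others. Interferon genes, which the γ-interferon in all 4 cultures induces, had a median of 0.13 in both genotypes over 48 emerin-null members. In emerin-null 5 passed 2-fold upwards and 0 downwards, against 7.51% of all genes upwards and 8.14% downwards. Gbp4 and Gbp6 were among these 5, with entries overlapping by 0.01 and 0 of the longer locus. None of the 10 one-entry members of the list passed 2-fold in emerin-null.

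Several stress and metabolic genes had close changes in both genotypes. Phgdh, the first enzyme of serine synthesis, had 39.7 FPKM at day 0 and 152 FPKM while proliferating in emerin-null, and 41.3 and 157 FPKM in wildtype. Gars, glycyl-tRNA synthetase, changed by 1.40 in emerin-null and 1.51 in wildtype, Stip1, a co-chaperone, by -1.33 and -1.39, and Gsr, glutathione reductase, by -1.05 and -1.09. Nqo1, a quinone reductase under NRF2, differed, with 46.2 FPKM at day 0 and 23.9 FPKM while proliferating in emerin-null, and 38.6 and 34.1 FPKM in wildtype. Atp5o, a subunit of ATP synthase, changed by -2.21 in emerin-null and -2.20 in wildtype, while the 39 measured respiratory chain genes had a median of 0.05. Actb, cytoplasmic actin, changed by -0.05 in emerin-null and -0.06 in wildtype. Rn45s, the ribosomal RNA precursor whose FPKM depends on how RNA was selected, had 256 FPKM at day 0 and 145 FPKM while proliferating in emerin-null, and 577 and 135 FPKM in wildtype, and was chosen after its values were seen. Its part in the other results was not tested.

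Some markers of other cell types were low and others were not. Pdgfra and Thy1 of fibroblasts, Kdr and Pecam1 of endothelium and Fabp4 of adipocytes were below 1 FPKM in both emerin-null samples. The Thy1 entries had not been tested. Pparg of adipocytes had 0.985 FPKM at day 0 and 1.51 FPKM while proliferating in emerin-null. Lpl of adipocytes had 12.7 and 29.0 FPKM at these stages, with 2 entries at day 0. At least 1 FPKM in an emerin-null sample was reached by 5 of 15 listed fibroblast markers, 13 of 16 of smooth muscle and pericytes, 6 of 12 of adipocytes, 3 of 14 of macrophages and leukocytes, 1 of 14 of endothelium, 6 of 17 of neural cells and 8 of 15 of cartilage, bone and tendon. The sums below count the list members found at each stage, which need not be the same genes at both. The smooth muscle list, part of which myoblasts also express, had a median change of -0.48 over 12 measured members in emerin-null. In wildtype it was -0.02 over 9. The list summed to 1315 FPKM at day 0 and 2018 FPKM while proliferating in emerin-null, and to 1801 and 1940 FPKM in wildtype. Acta2, smooth muscle actin, supplied most of it, with 794 FPKM at day 0 and 1357 FPKM while proliferating in emerin-null, and 1142 and 1302 FPKM in wildtype, while Cnn1 of the same list was below 1 FPKM in all 4 samples. The fibroblast list summed to 1395 FPKM at day 0 and 798 FPKM while proliferating in emerin-null, and to 1935 and 1236 FPKM in wildtype. S100a4 of that list had 867 FPKM at day 0 and 396 FPKM while proliferating in emerin-null, and 1290 and 703 FPKM in wildtype. The adipocyte list summed to 27.2 FPKM at day 0 and 74.5 FPKM while proliferating in emerin-null, and to 65.6 and 106 FPKM in wildtype. Only 5 of the 7 adipocyte genes found were tested at both stages, and these sums do not cover the same genes. The median change was -0.55 over 4 measured members in emerin-null and -0.14 over 3 in wildtype. Cebpa of that list lay the other way, with changes of 0.81 in emerin-null and 0.72 in wildtype. The macrophage and leukocyte list summed to 120.4 FPKM at day 0 and 81.1 FPKM while proliferating in emerin-null, and to 109 and 33.2 FPKM in wildtype, most of it from Cd68, whose entries share their loci with other genes. The endothelial list summed to 8.90 FPKM at day 0 and 11.4 FPKM while proliferating in emerin-null, and to 8.54 and 12.4 FPKM in wildtype. The cartilage, bone and tendon list summed to 1221 FPKM at day 0 and 643 FPKM while proliferating in emerin-null, and to 1356 and 1444 FPKM in wildtype. The neural list summed to 57.0 FPKM at day 0 and 33.9 FPKM while proliferating in emerin-null, and to 105 and 91.7 FPKM in wildtype. Tubb3, neuronal β-tubulin, changed by 0.69 in emerin-null and 0.46 in wildtype. Spp1, the secreted phosphoprotein osteopontin of the cartilage, bone and tendon list, had 1150 FPKM at day 0 and 577 FPKM while proliferating in emerin-null, and 1282 and 1371 FPKM in wildtype. The part of these markers in the other results was not tested.

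The plot of 6 genes by stage, chosen after their values were seen, sets the day 0 levels beside those after serum withdrawal. Each stage comes from its own table, so levels are set side by side without a test. Myom1 had 20.5, 7.19, 32.2, 42.6, 45.7 and 61.7 FPKM from proliferating to day 4 in emerin-null, and 21.8, 11.3, 33.9, 41.1, 47.2 and 59.0 FPKM in wildtype. Day 0 was thus the lowest stage of Myom1 in both genotypes, and from day 1 on they were close. Mybpc1 had 9.36, 4.81, 15.6, 60.4, 126 and 185 FPKM from proliferating to day 4 in emerin-null, and 16.1, 14.6, 34.8, 111, 173 and 215 FPKM in wildtype, lower in emerin-null at each stage. Col1a1 had 16.4, 4.97, 31.8, 46.5, 57.0 and 51.4 FPKM in emerin-null over these stages, and 19.04, 22.7, 45.3, 20.8, 12.4 and 7.61 FPKM in wildtype. The emerin-null level of Col1a1 was below wildtype up to day 1 and above it from day 2 on. Cdkn1c had 239, 127, 1169, 897, 374 and 152 FPKM in emerin-null, and 52.5, 36.2, 173, 165, 57.2 and 24.1 FPKM in wildtype. Thbs2 stayed lower in emerin-null at each stage, with 1.38 to 4.42 FPKM in emerin-null and 5.37 to 12.7 FPKM in wildtype.

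**Figure D5:**
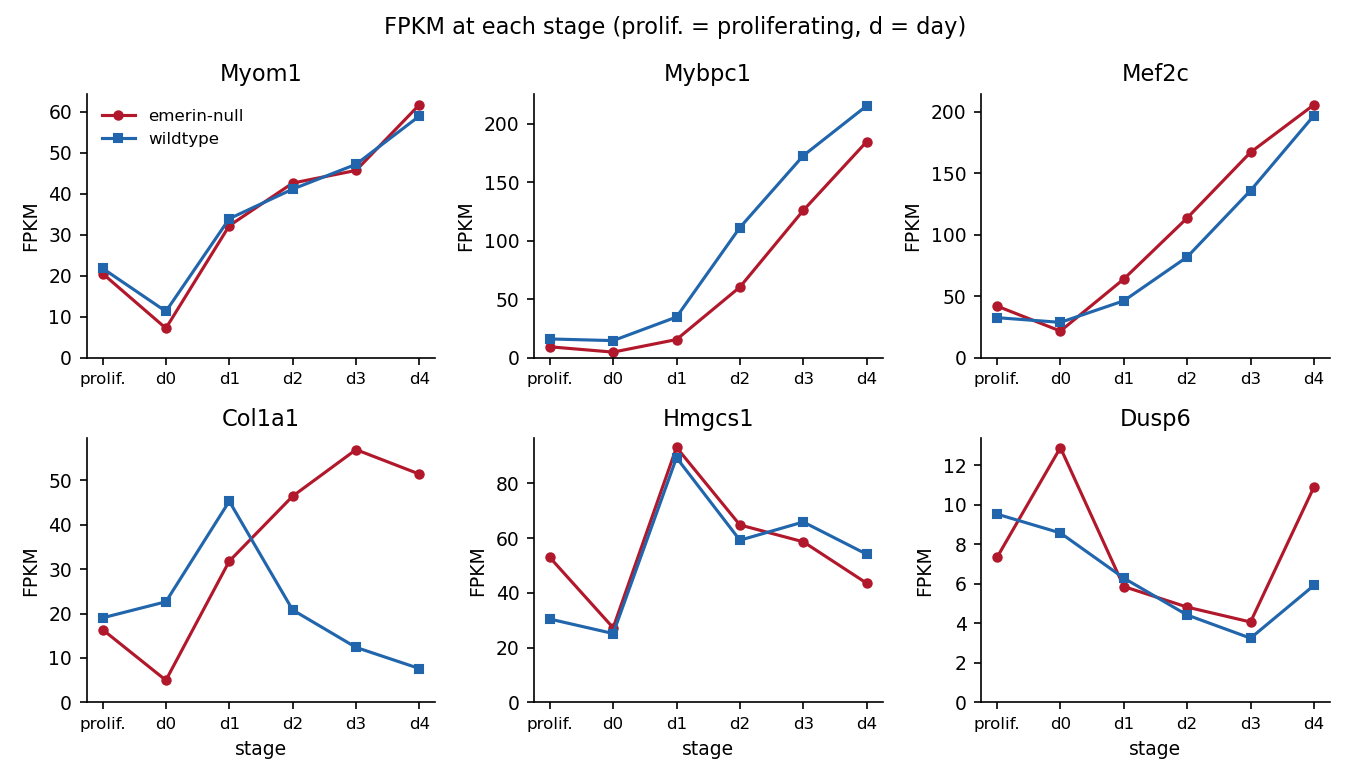
FPKM of 6 genes (vertical axes) at each of 6 stages (horizontal axes), in emerin-null (circles) and wildtype progenitors (squares), 1 value per point and a separate table per stage. Myom1 is lowest at day 0 in both genotypes, and Col1a1 dips to 4.97 FPKM at day 0 in emerin-null only, where wildtype has 22.7 FPKM.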

How the data were processed

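RNA of emerin-null and wildtype H2K progenitors at 6 stages was sequenced. FastQC, TopHat and Cuffdiff, with the mm10 genome, are named in the submitters' processing notes and the study's methods, which give no versions. The authors deposited 1 Cuffdiff table per stage with FPKM of wildtype and emerin-null. Its columns of fold changes, test statistics, p- and q-values and significance hold the authors' genotype comparisons and were not used; the test status was.

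Day 0 and proliferating FPKM were joined by gene symbol in Python 3.11.15 (pandas 2.3.3), with 1 entry per gene (largest summed FPKM), scaled by the median ratio, with a pseudocount of 0.1 FPKM and a minimum of 1 FPKM at one stage. Symbols turned into dates (21 at most per table) were dropped. With 1 value per group no test was possible. Named genes are the 15 highest and 15 lowest genes alone at their locus with at least 5 FPKM and loci overlapping by at least 0.5, Emd, 20 fixed genes, and per list the 4 largest changes among members alone at their locus with at least 5 FPKM; some of them are not reported here. Members and the 44 gene lists were chosen with earlier results of these data known. The computation was tested on simulated data. Alternatives covered scaling, pseudocount, minimum, entry choice, shared loci and status.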

Additional observations from a re-analysis of the deposited data

Results flagged for a closer look

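Slc14a1, a urea transporter, was at least 2-fold higher at day 0 in emerin-null and at least 2-fold lower in wildtype. It had 5.41 FPKM at day 0 and 1.62 FPKM while proliferating in emerin-null, and 1.93 and 4.06 FPKM in wildtype, and the emerin-null change exceeded the wildtype change by 2.73 on the log2 scale. Cd200r4, a receptor of the CD200 family, lay the other way, with 0.644 FPKM at day 0 and 2.33 FPKM while proliferating in emerin-null, and 6.98 and 0.796 FPKM in wildtype, a difference between the changes of -4.67. These were the only 2 of the one-entry genes that passed 2-fold in opposite directions. The difference was not tested, and both genes were chosen after their values were seen.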

How the results depend on the processing

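No paired analysis was possible because each genotype and stage is 1 sample with no replicate number, and for the same reason no replicate could be left out. The counts of genes past 2-fold upwards and downwards stayed within 1.5 times their main values under 10 of the 12 alternatives. With only genes alone at their locus they were 354 and 407 in emerin-null (of 7131 genes) and 360 and 345 in wildtype (of 7087). With one-entry genes, an alternative chosen after seeing the data, they were 64 and 98 in emerin-null and 49 and 74 in wildtype. Fewer genes were counted under both settings, and the cause of the smaller share past 2-fold was not tested. With the pair of entries of largest locus overlap the change of Ero1lb in emerin-null was 0.047, and that of Gstm2 -0.45 in emerin-null and -0.45 in wildtype, each opposite in sign to the main value. With the largest entry of the same genotype the wildtype change of Kif11 was 0.56, where the main entry was listed at 0. Of 1016 list medians under the alternatives 2 moved by more than 1.5-fold. Of 5963 changes of single genes under the alternatives 45 moved by more than 1.5-fold, besides the 4 that changed sign. Of these 45, 25 came with a pseudocount of 1 FPKM and 11 with the pair of entries of largest locus overlap. The median of all genes lay at most 0.052 from 0 on the log2 scale under each alternative. Read depth is unknown, so that counting error could not be given for low FPKM.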

Other observations

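Several genes not described above, chosen after their values were seen, differed in their change upon plating between the genotypes. Nefl, the light neurofilament chain, had 5.10 FPKM at day 0 and 1.67 FPKM while proliferating in emerin-null, and 4.83 and 9.36 FPKM in wildtype. Nefl was thus close in both genotypes at day 0, and the emerin-null proliferating culture was the lowest of the 4. Ptgs1, cyclooxygenase 1, had 16.5 FPKM at day 0 and 8.72 FPKM while proliferating in emerin-null, and 23.4 and 28.5 FPKM in wildtype. Aqp1, a water channel, had 18.7 FPKM at day 0 and 9.68 FPKM while proliferating in emerin-null, and 18.6 FPKM at both stages in wildtype.

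Lower at day 0 in emerin-null were Capn6, an atypical calpain, with 2.70 FPKM at day 0 and 6.45 FPKM while proliferating, and 5.01 and 3.82 FPKM in wildtype, and Fhl1, a LIM protein of muscle, with 36.3 and 55.7 FPKM in emerin-null, and 87.9 and 64.0 FPKM in wildtype. Ptn, the heparin-binding growth factor pleiotrophin, had 8.32 FPKM at day 0 and 7.56 FPKM while proliferating in emerin-null, and 18.4 and 7.74 FPKM in wildtype, so that the wildtype day 0 culture stood above the 3 others. Among one-entry genes 19 had an emerin-null change at least 1 above the wildtype change on the log2 scale, and 22 had one at least 1 below it. None of these differences was tested.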
